A study of Mus musculus with 12 samples.

Results

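The genes examined encode the aminoacyl-tRNA synthetases, the enzymes that join each amino acid to its transfer RNA. They were taken as every array entry annotated to exactly 1 gene symbol of the synthetase naming pattern, with the brightest entry standing for a gene. That gave 34 genes, each with a single transcript cluster, among 30827 genes that had a 1-symbol cluster. Of these, 18 encode cytosolic enzymes and 16, whose symbols end in 2, encode mitochondrial ones. Aars was not analysed here, because its cluster is also annotated to a second gene. The naming pattern itself uses no measured value, and no gene had several entries to choose between. The pattern was, however, picked with earlier results of these data known.

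The samples were mouse HoxB8-ER cells on a C57BL/6 background, bone marrow progenitors of Ezh2-/- mice and wild-type littermates immortalised by HOXB8 fused to the ligand-binding domain of the estrogen receptor. Estradiol at 0.5 µM holds them in a dividing promyelocyte-like state, and they turn into neutrophils within 6 days of its removal. Affymetrix Mouse Transcriptome Array 1.0 data from 250 ng of RNA covered 6 groups of 2 arrays. The groups were undifferentiated wild-type cells, undifferentiated Ezh2-/- cells, neutrophils derived from each, and wild-type neutrophils derived with GSK343, an EZH2 inhibitor, or with its vehicle. Exposure to GSK343 lasted 9 days. Its concentration is 0.5 µM in the labels of the samples but 1 µM in the description of the series, and the files do not settle which is right. All 12 samples carry the HOXB8 fusion. Neither the number of lines per genotype nor whether the 2 arrays of a group come from separate cultures is stated. Genotype and cell line therefore cannot be told apart, and a p-value here reflects array-to-array spread that may be only technical.

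Cytosolic synthetases supply ribosomes in the cytoplasm, and a separate set of nuclear genes supplies the ribosomes inside mitochondria. Several cytosolic enzymes sit together in a large multisynthetase complex held by the scaffold proteins Aimp1, Aimp2 and Eef1e1. Transcription of many cytosolic synthetase genes is raised by the transcription factor ATF4 when amino acids are short or eIF2alpha is phosphorylated, and growing cells generally carry more of them than resting cells.

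The 8 genotype arrays and the 4 drug arrays have different medians over all clusters (4.54 to 4.65 and 3.88 to 3.96 on the log2 scale) and look separately normalised, so values were compared only within each range. All 34 genes passed a filter on dim signal. Array by array, 32 to 34 of them lay above the background set by antigenomic control probes on the genotype arrays and 28 to 32 on the drug arrays. Against the median of 5222 negative control probe sets, which was higher than that background on most arrays, the counts were 27 to 34 and 27 to 28, with 27 on both wild-type neutrophil arrays. The Ezh2 signal in undifferentiated cells was 2.34 log2 units lower with the Ezh2-/- label (SE 0.155, adjusted p = 5.5e-05). In neutrophils it was not lower (difference 0.55, SE 0.155, adjusted p = 0.0501), so the group is called neutrophils labelled Ezh2-null and every direction drawn from it rests on that label. On differentiation the mean Ezh2 signal went from 11.61 to 8.33 in wild-type cells (change −3.28, limma adjusted p = 1.23e-06). In cells with the Ezh2-/- label it went from 9.27 to 8.88 (−0.39, adjusted p = 0.113). Of 10 neutrophil markers, 10 rose on differentiation in wild-type cells (median 12.30 log2 units) and 10 in cells labelled Ezh2-null (8.84). Macrophage markers rose too, 6 of 7 measured in wild-type (median 5.15) and 5 of 7 in Ezh2-null cells (2.30), so neither derived population has neutrophil markers alone. Lymphocyte markers lay below background, apart from 1 marker on 1 array.

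Synthetase transcript signal fell widely as wild-type cells became neutrophils. Of the 34 genes, 30 fell and 0 rose (limma, adjusted p under 0.05). The background was 12.2% of all clusters lower and 13% higher, or 38.7% lower and 22.5% higher among the 14770 1-symbol clusters above background. All 18 cytosolic genes fell, each by more than 2-fold, with a median change of −2.46 log2 units and a range from −3.50 to −1.28. Of the 16 mitochondrial genes 12 fell, 10 of them by at least 2-fold, with a median of −1.31 and a range from −2.55 to 0.19. The median over all clusters was 0.03 and over 1-symbol clusters above background −0.26. In bulk RNA, less synthetase RNA per cell cannot be told apart from fewer cells of the type that carries it.

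**Figure D1:**
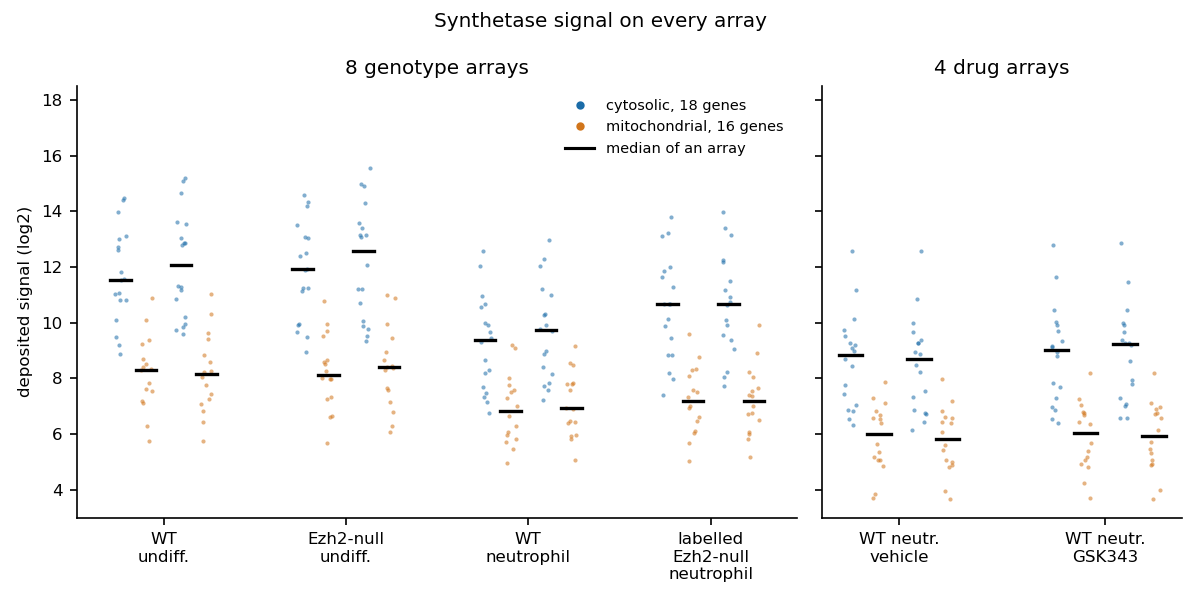
Deposited log2 signal (vertical axis) of every synthetase gene on every array, with the 8 genotype arrays on the left and the 4 drug arrays on the right, 2 arrays a group. Points are genes, blue for the 18 cytosolic and orange for the 16 mitochondrial, and black bars are the median of an array. Cytosolic medians were 11.55 and 12.05 on the undifferentiated wild-type arrays, 9.38 and 9.74 on the wild-type neutrophil arrays, and 10.67 on both arrays of neutrophils labelled Ezh2-null.

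The deepest fall was that of Tars, which charges threonine tRNA. Its signal was 12.61 and 13.62 in undifferentiated wild-type cells and 9.44 and 9.79 in wild-type neutrophils, a change of −3.50 (SE 0.345, adjusted p = 6.63e-05). The arrays of the stages did not overlap, though the replicate arrays differed by 1.01 in undifferentiated cells and by 0.34 in neutrophils. The change was nearly as large for Eprs, a fused enzyme that charges both glutamate and proline tRNA, with 13.10 and 13.55 before and 9.68 and 10.29 after (−3.34, SE 0.362). Kars, the lysine enzyme, whose gene serves cytosol and mitochondria alike, went from 12.99 and 12.88 to 9.31 and 9.90 (−3.33, adjusted p = 5.32e-06). Iars, the isoleucine enzyme, went from 14.48 and 15.10 to 10.94 and 12.05 (−3.30, SE 0.392). In each of these genes both neutrophil arrays lay below both undifferentiated arrays.

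Vars charges valine tRNA and lies on chromosome 17. It read 10.80 and 10.21 in undifferentiated cells and 7.33 and 7.74 in neutrophils, a change of −2.97 (adjusted p = 1.9e-05). Mars1, whose enzyme charges the methionine tRNAs that also start translation, had the smallest SE of the cytosolic genes, with 11.05 and 11.31 before and 8.31 and 8.41 after (−2.82, SE 0.134). Yars, the tyrosine enzyme, was at 9.21 and 9.96 and then at 6.75 and 7.22 (−2.60). Its mitochondrial counterpart Yars2 fell by a like amount, from 9.38 and 9.63 to 7.0 and 6.91 (−2.55, adjusted p = 2.48e-06), the deepest fall of any mitochondrial gene here. The remaining cytosolic genes were Farsa (−2.54) and Farsb (−2.45), the paired subunits of the phenylalanine enzyme, Lars (−2.48), Gars (−2.16), Hars (−2.15), Nars (−2.04), Rars (−1.93), Cars (−1.70), Wars (−1.63), Sars (−1.43) and Qars (−1.28). All of them passed the test, Sars closest to the threshold (adjusted p = 0.0416), and its call was lost without either wild-type neutrophil array or without array 2 of undifferentiated wild-type cells.

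In the multisynthetase complex all 7 catalytic members measured (Eprs, Iars, Kars, Lars, Mars1, Qars and Rars) fell, with a median of −2.82, and the 11 cytosolic genes outside it all fell with a median of −2.16. Dars, another member of the complex, was not analysed here. Its scaffold genes fell with them. Eef1e1 was at 13.99 and 14.32 in undifferentiated wild-type cells and at 10.27 and 10.91 in neutrophils (−3.57, SE 0.267), Aimp2 went from 8.83 and 8.55 to 6.07 and 6.13 (−2.59, SE 0.210), and Aimp1 from 9.60 and 10.10 to 7.89 and 7.85 (−1.98, SE 0.178). The split by structural class showed little, with a median of −2.48 for the 9 cytosolic class I genes and −2.31 for the 8 of class II.

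Among mitochondrial genes the fall was uneven. Tars2 (−2.41), Mars2 (−1.93), Vars2 (−1.88), Iars2 (−1.83), Rars2 (−1.67), Lars2 (−1.51), Pars2 (−1.46), Sars2 (−1.17), Aars2 (−1.16) and Cars2 (−0.94) fell. Ears2, the mitochondrial glutamate enzyme, went from 5.76 and 5.77 to 4.95 and 5.07 (−0.75, adjusted p = 0.0123). Both of its neutrophil values lay at or under background, so its fall is only bounded, at 1.21-fold or more. It lost its call without either undifferentiated wild-type array (adjusted p = 0.0591 and 0.0617) or without wild-type neutrophil array 1 (0.0724). The genes that did not pass were Wars2 (−0.18, 95% interval −0.54 to 0.18), Hars2 (−0.09, −0.47 to 0.28), Fars2 (0.00, −0.46 to 0.46) and Nars2 (0.19, −0.38 to 0.75).

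Ears2 places glutamate on the mitochondrial glutamine tRNA, and the Qrsl1, Gatb and Gatc subunits of an amidotransferase then convert it to glutamine. Gatb went from 7.08 and 7.15 to 6.10 and 6.36 (−0.88, SE 0.122) and Qrsl1 from 7.16 and 6.97 to 6.37 and 6.55 (−0.60, SE 0.130), and both fell. Gatc, at 13.14 and 13.28 before and 12.72 and 12.69 after, had a change of −0.50 that did not pass (adjusted p = 0.128). Mtfmt, which formylates the mitochondrial initiator tRNA, fell by 0.92. The genes of this pathway thus moved less than most cytosolic synthetases, a difference that was not tested.

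For amino acids with separate cytosolic and mitochondrial enzymes, 14 pairs could be set side by side, with Farsa and Farsb each set against Fars2. In wild-type differentiation the cytosolic gene had the lower value in 14 of 14 pairs, by a median of −1.09. The widest gaps were those of Farsa and Fars2 (−2.55), Farsb and Fars2 (−2.46), Nars and Nars2 (−2.22) and Hars and Hars2 (−2.05), and the narrowest was Yars against Yars2 (−0.05). The gap within a pair was not tested. Mitochondrial genes also lay nearer to background, with array medians of 6.82 and 6.92 in wild-type neutrophils against 9.38 and 9.74 for cytosolic genes and a background between 4.97 and 5.79 over the genotype arrays. The part of dim signal in the smaller mitochondrial changes was not tested.

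**Figure D2:**
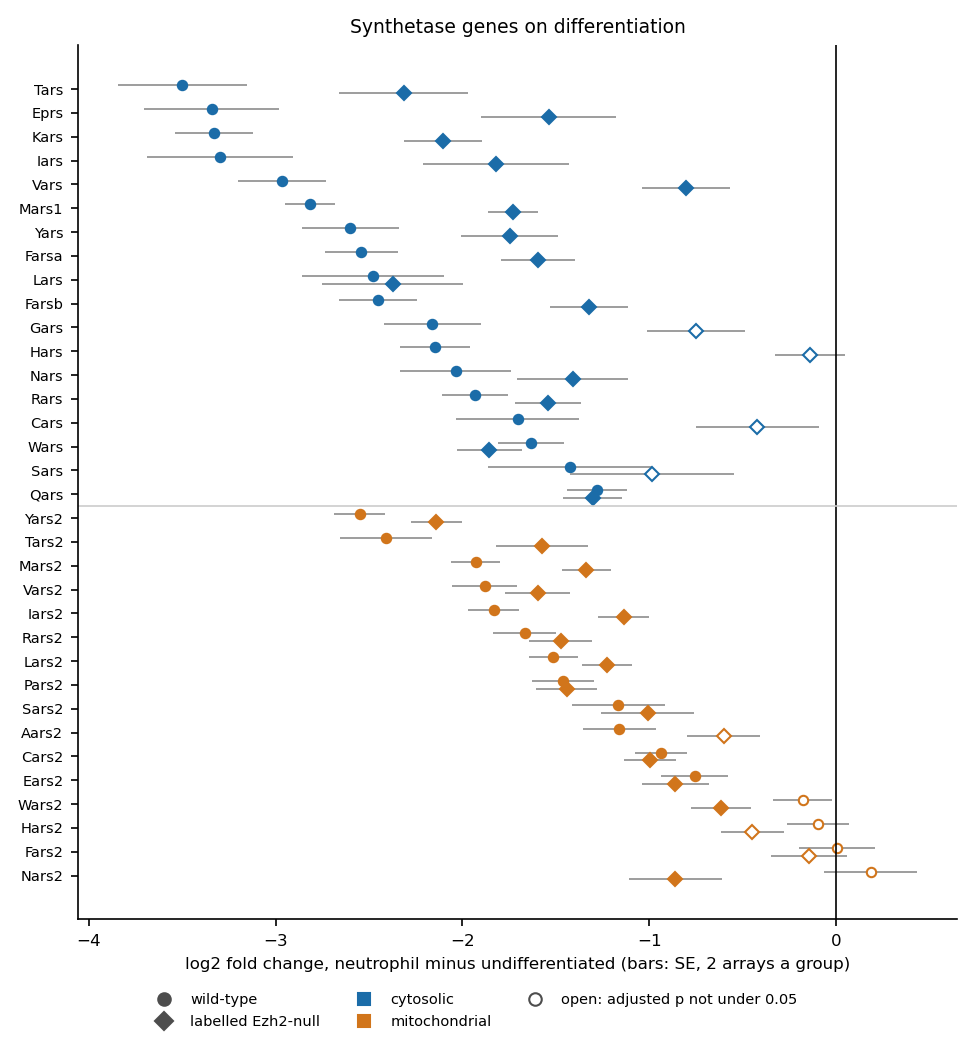
Log2 fold change from undifferentiated cells to neutrophils (horizontal axis) for each of the 34 genes, in wild-type cells (circles) and in cells labelled Ezh2-null (diamonds), with bars of 1 SE. Filled symbols passed the test, cytosolic genes are in blue above and mitochondrial genes in orange below. All 18 cytosolic genes were lower in wild-type neutrophils, from −3.50 for Tars to −1.28 for Qars, and Hars stands out for its Ezh2-null value of −0.14 beside −2.15 in wild-type.

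Promoters were read for the synthetase genes, whether or not they fell, from 250 bases before to 50 after the annotated start. They came from RefSeq's table for GRCm38.p6. It held 25 of the 34 genes, 11 cytosolic and 14 mitochondrial. Both strands were searched for TGATGNAAN, the core of the amino acid response element that ATF4 binds with a C/EBP partner. It was found for 4 of 11 cytosolic genes (36.4%) and for 0 of 14 mitochondrial ones, against 3.95% of all 32851 promoters. CACGTG is the E-box bound by Myc with Max and by related factors. It was found for 3 of 11 cytosolic genes (27.3%) and 1 of 14 mitochondrial ones (7.14%), against 7.15% of all promoters. The synthetase shares count genes and the background shares count promoters, so their units differ. The matched stretches are printed 5′ to 3′ on the gene's own strand, with motif letters in capitals, because they show where in each promoter the matches lie. No motif match overlapped another. The upstream stretches end at the base before the start, and the shorter ones surround a match after the start. A match describes letters in the window and says nothing of binding.
Gars, chr6:55037901-55038000, plus strand: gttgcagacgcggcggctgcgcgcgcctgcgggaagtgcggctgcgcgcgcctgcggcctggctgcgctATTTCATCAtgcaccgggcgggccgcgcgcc
Tars, chr15:11399659-11399758, minus strand: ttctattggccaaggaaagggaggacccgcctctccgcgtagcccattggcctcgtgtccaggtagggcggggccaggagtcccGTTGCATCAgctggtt
Tars, chr15:11399622-11399651, minus strand: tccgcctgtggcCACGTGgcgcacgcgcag
Iars, chr13:49682030-49682129, plus strand: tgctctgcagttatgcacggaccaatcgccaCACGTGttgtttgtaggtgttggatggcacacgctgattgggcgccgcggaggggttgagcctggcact
Iars, chr13:49682126-49682155, plus strand: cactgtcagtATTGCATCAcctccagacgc
Yars, chr4:129189896-129189925, plus strand: cgagctcagcTGATGCAACccgacgggact
Farsb, chr1:78488898-78488997, minus strand: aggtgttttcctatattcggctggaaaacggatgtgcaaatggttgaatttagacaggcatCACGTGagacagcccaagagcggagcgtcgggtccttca
Ears2, chr7:122067048-122067077, minus strand: cgcgaaggagccCACGTGtgtgtttctagt
The response element core lay on the opposite strand at −31 to −23 in Gars, −16 to −8 in Tars and 7 to 15 in Iars, counted from the start, and on the gene's strand at 4 to 12 in Yars. Tars, Iars and Yars are among the genes with the 8 largest falls, while Gars (−2.16) fell less than the cytosolic median (−2.46). All 18 cytosolic genes fell, with or without a match, and a link between a match and the depth of the fall was not tested. Iars and Tars held both motifs, the E-box at −69 to −64 and at 20 to 25. In Farsb the E-box lay at −39 to −34, and in Ears2, the 1 mitochondrial gene with it, at 22 to 27. The 9 genes without a promoter in the table are not covered by these counts.

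Other parts of the translation and tRNA machinery fell in wild-type differentiation as well. All 8 cytosolic elongation and release factors fell (median −1.60), led by the elongation factor subunits Eef1b2 (−2.84, SE 0.165) and Eef1g (−2.62, SE 0.224) and the release factor Gspt1 (−2.49, SE 0.219). Of 14 genes of tRNA processing, modification and export measured, 12 fell and 0 rose (median −1.84). The deepest were the pseudouridine synthase Pus7 (−3.96), the tRNA methyltransferase Nsun2 (−3.73) and the tRNA exporter Xpot (−2.99). Of 10 RNA polymerase III subunits, which transcribe tRNA genes, 7 fell (median −0.81, Polr3e −2.52, Polr3g −1.79, Polr3k −1.75). Of 10 mitochondrial translation factors 9 fell (median −1.26, Tufm −2.03, Gfm1 −1.99, Guf1 −1.86).

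The genes of ATF4 and amino acid supply moved both ways. Of 24 measured, 12 fell and 2 rose (median −0.82). The largest falls were those of the amino acid transporter subunit Slc7a5 (−6.72, SE 0.354) and of the glycine and serine synthesis genes Shmt2 (−6.28) and Psat1 (−6.04). Of 6 genes for eIF2alpha kinases and their opposing phosphatase subunits, 1 fell and 2 rose. Eif2ak4, the sensor of uncharged tRNA also called GCN2, fell by 1.5 log2 units (SE 0.159), while Eif2ak3 rose by 1.39 and Ppp1r15b by 1.12.

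Growth and division genes had deeper median falls than the synthetases, a difference that was not tested. All 12 nucleolar and Myc-linked genes measured fell (median −3.67), with Myc at −7.14 (SE 0.286), Dkc1 at −5.77 and Nop58 at −5.40. All 11 cell cycle genes measured fell (median −3.38, Mcm2 −5.53, Mcm3 −5.15, Mcm5 −4.50), and all 8 promyelocyte and progenitor markers fell (median −7.38, Ctsg −10.56, Mpo −10.21, Kit −7.45). Their part in the synthetase fall was not tested. Progenitor marker sums, as log2 of summed linear signal, were 18.91 and 18.79 on the undifferentiated wild-type arrays and 10.53 and 10.63 on the neutrophil arrays.

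Cells labelled Ezh2-null also lost synthetase signal on differentiation. Of the 34 genes 27 fell and 0 rose, against a background of 10.7% of all clusters lower and 11.7% higher, and 34.1% lower and 17.4% higher among 1-symbol clusters above background. Of the cytosolic genes 14 of 18 fell (median −1.54, range −2.37 to −0.14) and of the mitochondrial genes 13 of 16 (median −1.07, range −2.14 to −0.14). The medians over all clusters and over 1-symbol clusters above background were 0.01 and −0.30. Wild-type and Ezh2-null differentiation share no arrays.

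Lars, the leucine enzyme, which is also known as a leucine sensor for mTORC1, had the largest change. It read 11.90 and 13.08 in undifferentiated Ezh2-/- cells and 10.13 and 10.11 in neutrophils labelled Ezh2-null (−2.37, SE 0.378, adjusted p = 0.00177). The 2 undifferentiated arrays differed by 1.18, yet both lay above both neutrophil arrays. Tars followed, at 12.51 and 13.41 and then 10.67 and 10.62 (−2.31), and Yars2, at 9.69 and 9.46 and then 7.51 and 7.37 (−2.14, SE 0.137). Kars went from 13.50 and 13.16 to 11.28 and 11.18 (−2.10, SE 0.208).

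Wars, the tryptophan enzyme, which interferon-gamma induces in many cells, went from 9.50 and 9.33 to 7.41 and 7.71 (−1.86, SE 0.176). Iars went from 14.60 and 15.56 to 13.13 and 13.39 (−1.82, adjusted p = 0.00895), and this call was lost without array 1 of neutrophils labelled Ezh2-null (adjusted p = 0.0592). The other genes that fell were Yars (−1.75), Mars1 (−1.73), Farsa (−1.60), Vars2 (−1.60), Tars2 (−1.57), Rars (−1.54), Eprs (−1.54), Rars2 (−1.47), Pars2 (−1.44), Nars (−1.41), Mars2 (−1.34), Farsb (−1.32), Qars (−1.30), Lars2 (−1.22), Iars2 (−1.14), Sars2 (−1.01), Cars2 (−0.99), Nars2 (−0.86), Ears2 (−0.86), Vars (−0.80) and Wars2 (−0.61). Ears2 read 5.66 and 6.28 before and 5.05 and 5.17 after, close to background.

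The genes that did not pass were Sars (−0.98), Gars (−0.75), Aars2 (−0.60), Hars2 (−0.45), Cars (−0.42), Fars2 (−0.14) and Hars (−0.14). Gars, the glycine enzyme of cytosol and mitochondria, was at 14.34 and 14.91 before and 13.80 and 13.97 after (adjusted p = 0.0748). Hars, the histidine enzyme, was at 11.16 and 10.72 before and 10.68 and 10.92 after, so its arrays overlapped (95% interval −0.56 to 0.28). All 3 scaffold genes fell, Aimp2 by 1.46, Eef1e1 by 1.39 and Aimp1 by 1.39 log2 units. Within pairs the cytosolic gene had the lower value in 9 of 14, by a median of −0.47. In the glutamine pathway Gatb (−0.89) and Mtfmt (−1.57) fell, while Qrsl1 (−0.24) and Gatc (−0.40) did not pass.

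The related lists in Ezh2-null differentiation were as follows. Elongation and release factors fell in 7 of 8 (median −0.98, Gspt1 −1.68, Eef1b2 −1.67, Eif5a −1.42). The tRNA processing genes fell in 11 of 14 (median −1.25), led by Pus7 (−2.57), Xpot (−2.57) and Nsun2 (−2.13). RNA polymerase III subunits fell in 7 of 10 (median −0.93, Polr3e −2.01) and mitochondrial translation factors in 9 of 10 (median −1.19, Tufm −1.77). Nucleolar and Myc-linked genes fell in 12 of 12 (median −2.18, Myc −4.02). Of the 24 amino acid response genes 9 fell and 4 rose (median −0.92), with Psat1 at −4.75, Phgdh, which starts serine synthesis, at −4.01, and the cystine transporter gene Slc7a11 at 4.76 (SE 0.983). Cell cycle genes divided, with 4 of 11 lower and 1 higher (median −0.67, Mcm3 −2.31, Mki67 1.53). Markers of other cell types moved on the same arrays. All 8 erythroid markers rose (median 3.86), among them Rhag, at background before, by at least 498-fold, and their summed signal went from 15.71 and 15.28 (log2 of summed linear signal) to 17.52 and 17.76. Of 8 mast cell and basophil markers 7 rose and 1 fell (median 3.33), with 5 above background on both undifferentiated arrays and 8 on both neutrophil arrays, where their sums were 19.39 and 19.42. Of 8 progenitor markers 7 fell (median −4.98). The part of these cells in the synthetase values was not tested.

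Before differentiation no synthetase gene passed the test between genotypes. Of 34 genes, 0 were called higher and 0 lower by limma, and 6 had an unadjusted p under 0.05. The background was 1.65% of all clusters higher and 1.34% lower, and 4.54% higher and 3.51% lower among 1-symbol clusters above background. Median differences were 0.20 for cytosolic and 0.13 for mitochondrial genes, against −0.01 over all clusters and 0.05 over 1-symbol clusters above background. The mitochondrial median was −0.02 without array 2 of undifferentiated Ezh2-/- cells. Differences ran from −0.65 for Aars2 (adjusted p = 0.16, 95% interval −1.09 to −0.21) to 0.79 for Sars (adjusted p = 0.564, −0.20 to 1.78). Replicate arrays of Sars differed by 1.27 in wild-type and 1.19 in Ezh2-/- cells, with array 2 higher in both. Such shared gaps enter the SE here, because arrays were not taken as pairs. With the replicate number as a block over all 12 arrays 0 genes passed, and pairing within undifferentiated cells alone was not tested. Qars, the glutamine enzyme, was at 11.52 and 11.27 in wild-type and 11.93 and 12.07 in Ezh2-/- cells, without overlap, but did not pass (0.61, adjusted p = 0.1). Gars (0.31), Kars (0.40), Wars (−0.14) and Ears2 (0.20) did not pass either. None of Aimp1 (0.41), Aimp2 (−0.02) and Eef1e1 (0.75) passed.

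Of the 34 genes, 17 were higher and 1 was lower in neutrophils labelled Ezh2-null than in wild-type neutrophils, against 6.75% of all clusters higher and 5.06% lower, and 19.7% higher and 12.8% lower among 1-symbol clusters above background. Of the cytosolic genes 12 of 18 were higher and 0 lower (median 1.18, range −0.36 to 2.15), 10 of them by at least 2-fold. Of the mitochondrial genes 5 of 16 were higher and 1 was lower (median 0.28, range −0.99 to 1.07). The medians over all clusters and over 1-symbol clusters above background were −0.03 and 0.06. These comparisons share the wild-type neutrophil arrays with wild-type differentiation and the other neutrophil arrays with Ezh2-null differentiation. The number of higher genes was 8 without wild-type neutrophil array 1, 8 without array 2 of neutrophils labelled Ezh2-null, 10 without array 1 of that group, and 9 in a fit on the genotype arrays only.

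Eprs differed most. It was at 9.68 and 10.29 in wild-type neutrophils and at 12.02 and 12.25 in neutrophils labelled Ezh2-null, a difference of 2.15 (SE 0.362, adjusted p = 0.00466). Hars had the smallest adjusted p of any member in this comparison, with 8.65 and 8.97 against 10.68 and 10.92 (1.98, SE 0.187, adjusted p = 0.000198). In both genes the groups were well apart, by far more than the replicate arrays of either group. Iars read 10.94 and 12.05 against 13.13 and 13.39 (1.76, adjusted p = 0.0182), with replicate wild-type arrays 1.11 apart. Its call was lost without either array labelled Ezh2-null (adjusted p = 0.0582 and 0.118) and without wild-type array 1 (0.115).

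Gars read 12.02 and 12.29 against 13.80 and 13.97 (1.73, SE 0.262, adjusted p = 0.00268), and Kars 9.31 and 9.90 against 11.28 and 11.18 (1.62, adjusted p = 0.00107), so both genes that serve cytosol and mitochondria were higher. Vars read 7.33 and 7.74 against 8.84 and 9.38 (1.58, adjusted p = 0.00244). The other cytosolic genes that were higher were Farsb (1.36), Cars (1.30), Mars1 (1.13), Yars (1.13), Farsa (0.74, adjusted p = 0.0416) and Qars (0.58, adjusted p = 0.0466). The mitochondrial ones were Tars2 (1.07), Mars2 (0.95), Lars2 (0.63), Iars2 (0.62) and Rars2 (0.61, adjusted p = 0.048). Farsa, Qars and Rars2 lost their calls with median centring. In a fit on the genotype arrays only, Cars, Iars, Yars, Iars2 and Tars2 lost theirs as well.

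Nars2, the mitochondrial asparagine enzyme, was the 1 gene that was lower, at 9.20 and 8.54 in wild-type neutrophils and 8.09 and 7.66 in those labelled Ezh2-null (−0.99, SE 0.249, adjusted p = 0.0313). Its call was lost without wild-type array 1 and without array 2 of the labelled group. The cytosolic genes that did not pass were Sars (1.23, adjusted p = 0.122), Tars (1.03, adjusted p = 0.0976), Rars (0.62, adjusted p = 0.0531), Nars (0.41), Lars (0.28) and Wars (−0.36). Lars, the deepest fall of Ezh2-null differentiation, had 9.98 and 9.69 against 10.13 and 10.11 here (95% interval −0.58 to 1.13).

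Wars was the 1 cytosolic gene whose value was negative, at 7.68 and 8.15 against 7.41 and 7.71 (adjusted p = 0.278, 95% interval −0.76 to 0.04). Interferon-gamma-responsive genes, with which Wars is usually induced, gave 3 higher and 2 lower of 11 measured (median −0.01), the higher ones being Gbp2 (4.37, SE 0.359), Cd274 (1.96) and Gbp3, which is bounded at 1.67-fold or more. The mitochondrial genes that did not pass were Yars2 (0.48, adjusted p = 0.0532), Pars2 (0.38), Sars2 (0.33), Vars2 (0.23), Ears2 (0.10), Fars2 (−0.06), Aars2 (−0.09), Wars2 (−0.10), Cars2 (−0.22) and Hars2 (−0.42). Ears2 read 4.95 and 5.07 against 5.05 and 5.17, near background in both groups.

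Hars and Hars2 are head-to-head neighbours on chromosome 18, with gene models that overlap at their ends in the RefSeq table. They nevertheless had unlike values. Hars changed by −2.15 in wild-type differentiation and differed by 1.98 between genotype labels in neutrophils, while Hars2 gave −0.09 and −0.42, neither of which passed. The difference between the paired genes was not tested.

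Within the multisynthetase complex 5 of 7 genes were higher in neutrophils labelled Ezh2-null (median 1.13), and so were all 3 scaffold genes. Eef1e1 read 10.27 and 10.91 against 13.22 and 13.80 (2.92, SE 0.267, adjusted p = 0.000173), a larger difference than that of any synthetase. Aimp2 read 6.07 and 6.13 against 7.08 and 7.33 (1.11, SE 0.210), and Aimp1 7.89 and 7.85 against 8.78 and 8.95 (1.00, SE 0.178). Outside the complex, 7 of 11 cytosolic genes were higher (median 1.23). Of 4 measured relatives and editing enzymes, Tarsl2, a threonyl-tRNA synthetase-like gene now also called Tars3, was the 1 that was higher, at 6.90 and 6.64 against 9.09 and 9.35 (2.45, SE 0.163). Qrsl1 (−0.14), Gatb (0.13), Gatc (0.43) and Mtfmt (−0.30) did not pass. Within the 14 pairs the cytosolic gene had the higher value in 11, by a median of 0.85.

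**Figure D3:**
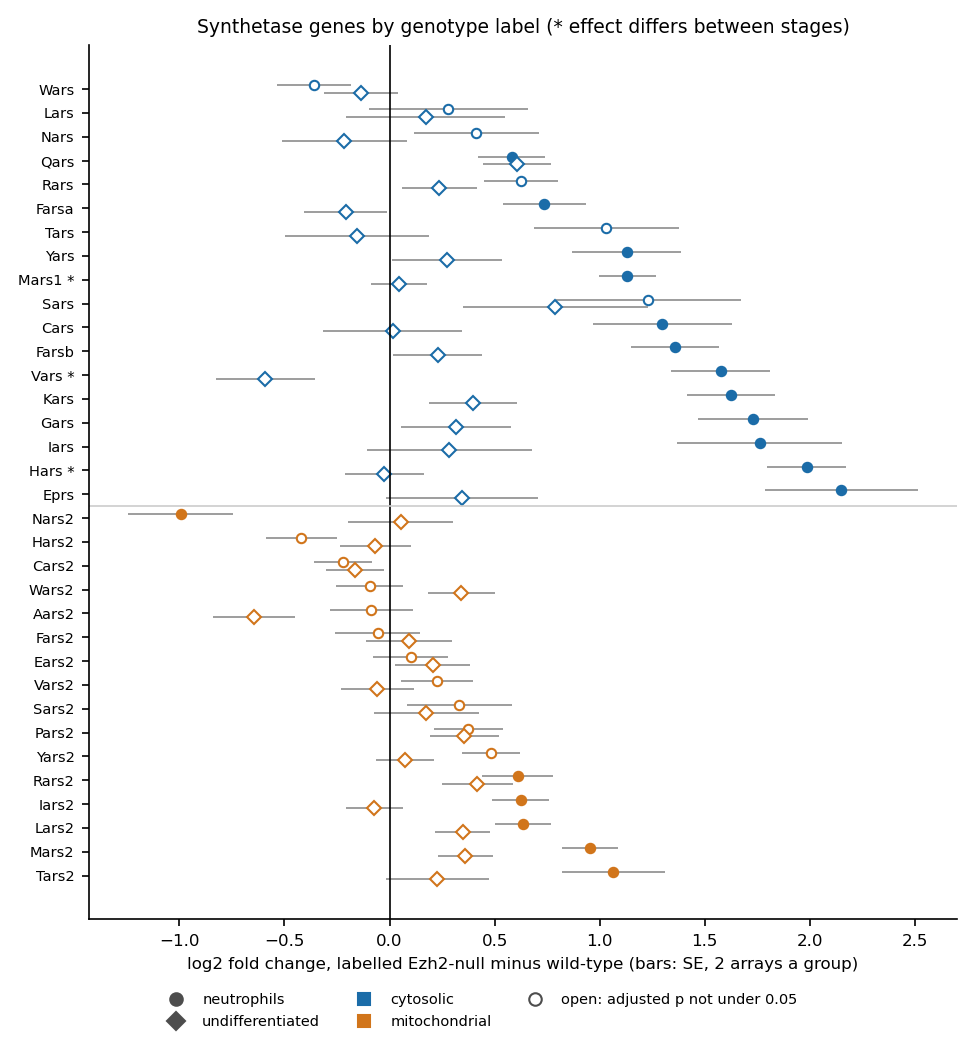
Log2 difference between cells labelled Ezh2-null and wild-type cells (horizontal axis) for each of the 34 genes, in neutrophils (circles) and undifferentiated cells (diamonds), with bars of 1 SE. Filled symbols passed the test, blue marks cytosolic and orange mitochondrial genes, and asterisks mark Hars, Mars1 and Vars, whose difference between stages passed. In undifferentiated cells 0 of 34 genes passed, and in neutrophils 17 were higher and Nars2 was lower.

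The difference of the genotype effect between stages was tested directly as an interaction. It was called for 3 of 34 genes, all higher, against 2.77% of all clusters higher and 1.65% lower, and 8.37% higher and 4.96% lower among 1-symbol clusters above background. The share of the 34 genes called was thus close to that of bright clusters, and the group as a whole is not shown to differ between stages. By set, 3 of 18 cytosolic and 0 of 16 mitochondrial genes were called. Unadjusted p lay under 0.05 for 12 of 18 cytosolic and 4 of 16 mitochondrial genes, against 15.4% of all clusters. That share was not counted over bright clusters. The genes share arrays and are not independent, so these counts are no test of a set. Vars had the largest value (2.17, SE 0.332, adjusted p = 0.00721), from −0.59 in undifferentiated cells to 1.58 in neutrophils. Hars followed (2.01, adjusted p = 0.0035), from −0.02 to 1.98, and then Mars1 (1.09, adjusted p = 0.0133), from 0.05 to 1.13. Mars1 lost its call without array 2 of neutrophils labelled Ezh2-null (adjusted p = 0.059) and without array 2 of undifferentiated wild-type cells (0.0569).

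For Kars (1.23, adjusted p = 0.0521), Gars (1.41, adjusted p = 0.0728), Farsb (1.13, adjusted p = 0.0737) and Eprs (1.81, adjusted p = 0.0958) the interaction did not pass, so their effects are not shown to differ between stages. Wars (−0.22) and Ears2 (−0.10) gave values near zero. The median over cytosolic genes was 1.11 and over mitochondrial genes 0.18, against −0.02 over all clusters and 0.01 over 1-symbol clusters above background. Among the scaffolds Eef1e1 was called (2.17, SE 0.377), and Aimp2 (1.12, adjusted p = 0.0747) and Aimp1 (0.59) were not.

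Related lists differed in how many members passed in neutrophils labelled Ezh2-null, where 19.7% of 1-symbol clusters above background were higher. Elongation and release factors were higher in 5 of 8 (median 0.76, Eef1b2 1.51, Eef1g 1.44, Eef1d 0.83) and tRNA processing genes in 7 of 14 with 1 lower (median 0.73, Nsun2 1.85, Pus7 1.42, Ssb 0.84). Most RNA polymerase III subunits and mitochondrial translation factors did not pass, with 3 of 10 (median 0.15) and 1 of 10 (Gfm1 0.77, median 0.32) higher. Amino acid response genes were higher in 7 of 24 and lower in 0 (median 0.85), led by Slc7a5 (4.75, SE 0.354), the proline synthesis gene Aldh18a1 (3.17) and the asparagine synthetase gene Asns (2.88). Asns, a known ATF4 target, read 9.61 and 9.23 against 12.25 and 12.35. Of the 6 eIF2alpha kinase and phosphatase genes 3 were higher and 1 was lower (Eif2ak3 −1.35, Eif2ak2 0.97). Ppp1r15a, at background in wild-type neutrophils, was at least 1.07-fold higher.

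Nucleolar and Myc-linked genes were higher in 9 of 12 (median 1.82), with Myc at 5.83 and 6.49 against 9.55 and 10.36 (3.79, SE 0.286), Nop58 at 3.37 and Dkc1 at 3.28. Cell cycle genes were higher in 10 of 11 (median 2.87, Mcm2 3.99, Ccna2 3.66, Top2a 3.10), and progenitor markers in 4 of 8 (median 1.58, Kit 5.35, Mpo 3.48, Myb 2.90). Markers of other cell types moved with the same arrays. All 8 mast cell and basophil markers were higher (median 5.79), among them Cpa3 by 11.47, and all 8 erythroid markers were higher (median 6.64), among them Car2 by 11.01. Summed mast cell and basophil signal was 13.64 and 12.06 (log2 of summed linear signal) in wild-type neutrophils and 19.39 and 19.42 in those labelled Ezh2-null. The erythroid sum was 7.99 and 8.0 against 17.52 and 17.76. On the undifferentiated wild-type arrays the mast cell and basophil sum was 18.81 and 18.90 and the erythroid sum 15.58 and 15.52. In wild-type differentiation 4 of the 8 mast cell and basophil markers fell and 0 rose, Cpa3 changing by −11.17. Of the 8 erythroid markers 1 fell there and 0 rose, Car2 changing by −9.41. In wild-type neutrophils 3 of the 8 mast cell and 1 of the 8 erythroid markers lay above background, against 8 and 8 in the other group. Of 7 macrophage markers 4 were lower (median −1.52) and of 10 neutrophil markers 3 were lower (median −0.66). The part of these cell types, and of dividing cells, in the synthetase differences was not tested.

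With GSK343 no synthetase gene passed. Of 34 genes, 0 were higher and 0 lower by limma, against 0.00152% of all clusters higher (1 cluster) and 0% lower, and 2 genes, Kars and Farsb, had an unadjusted p under 0.05. Unadjusted p-values lay under 0.05 for 6.01% of all clusters. The cytosolic median was 0.33 and the mitochondrial median 0.06, against 0.00 over all clusters and 0.08 over 1-symbol clusters above background. Both GSK343 arrays lay above both vehicle arrays for 15 of 18 cytosolic and 6 of 16 mitochondrial genes. The same held for 19.5% of all clusters and 36.9% of the 1-symbol clusters above background. On this scale differences ran from −0.23 for Nars2 to 0.55 for Iars.

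Kars read 8.94 and 9.21 with GSK343 and 8.69 and 8.48 with vehicle (0.49, 95% interval 0.02 to 0.96, adjusted p = 0.808). Farsb read 7.84 and 7.95 against 7.43 and 7.35 (0.51, 0.03 to 0.98, adjusted p = 0.803). Gars read 11.66 and 11.46 against 11.17 and 10.86 (0.55, −0.05 to 1.14). The arrays of these 3 genes did not overlap between groups, but none passed the test. Wars read 6.86 and 6.99 against 6.84 and 6.73 (0.14, −0.26 to 0.54). Ears2 read 3.70 and 3.65 against 3.72 and 3.66, below the background of these arrays (4.83 to 5.20), so its values show nothing about an effect of the drug. Lars was the 1 cytosolic gene with a negative value (−0.05, −0.91 to 0.80).

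The highest upper end of a cytosolic interval was 1.44 (Iars), so the data leave room for a rise of that size, whereas for Mars1 the interval ended at 0.40. Eef1e1 read 9.67 and 9.63 against 8.88 and 9.29 (0.57, adjusted p = 0.858), and Aimp1 (0.15) and Aimp2 (0.27) did not pass. Of 8 progenitor markers 8 had a positive value (median 0.92) and of 10 neutrophil markers 10 a negative one (median −0.39), with 0 called in either list. Cell cycle genes had a median of 0.69 with 0 of 11 called. Cpa3 was the 1 cluster called and was 2.99 higher (SE 0.224, adjusted p = 0.0187). GSK343 and the Ezh2-/- label were measured on arrays of different ranges, so their values are given side by side only, for example 0.45 and 2.15 for Eprs, 0.39 and 1.98 for Hars and 0.35 and 1.58 for Vars.

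**Figure D4:**
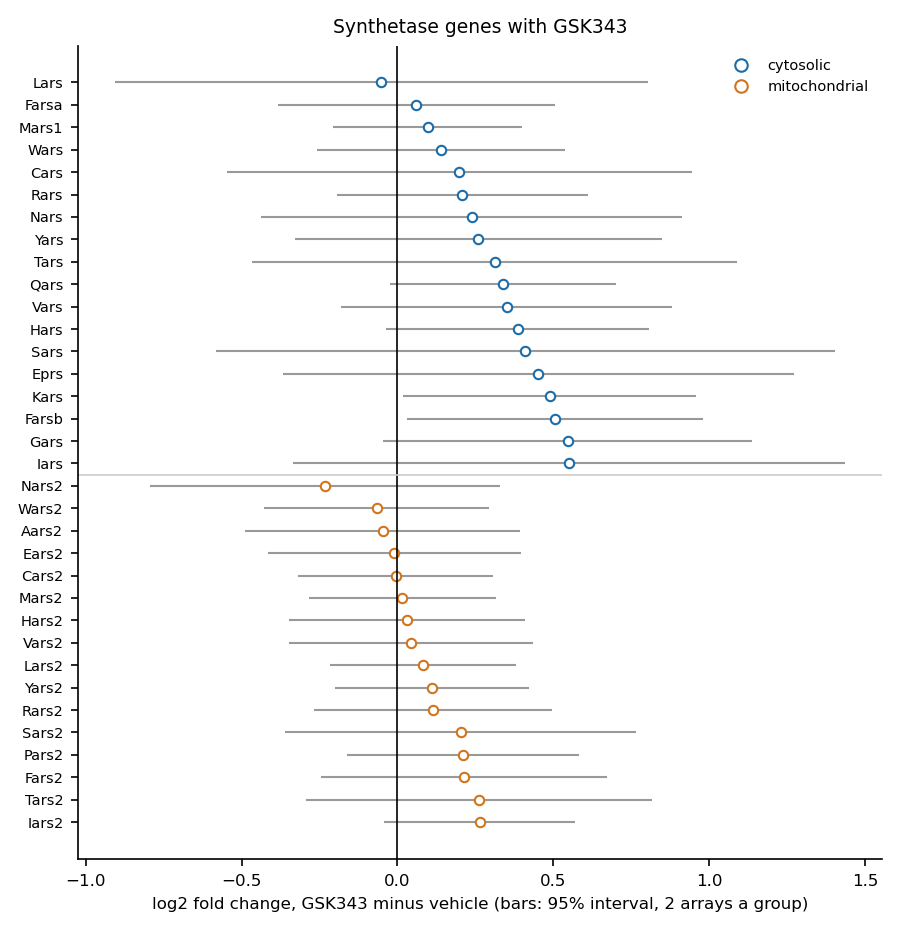
Log2 difference between GSK343 and vehicle in wild-type neutrophils (horizontal axis) for each of the 34 genes, with 95% intervals from limma on 2 arrays a group, blue for cytosolic and orange for mitochondrial. All symbols are open because 0 genes passed the test. The cytosolic values lie between −0.05 and 0.55 and the mitochondrial values between −0.23 and 0.26.

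Replicate arrays of undifferentiated cells were unlike in their cytosolic synthetases. In undifferentiated wild-type cells array 2 was the higher for 13 of 18 cytosolic genes (median gap 0.40), by 1.27 for Sars, 1.01 for Tars, 0.96 for Lars and 0.96 for Cars. In undifferentiated Ezh2-/- cells array 2 was the higher for 11 of 18 (median gap 0.27), by 1.25 for Eprs, 1.19 for Sars, 1.18 for Lars and 0.89 for Tars. Vars, Hars, Kars and Farsa were lower on array 2 in both groups. Across the 34 genes the gaps of these groups, which share no arrays, had a Pearson r of 0.74 and a Spearman rho of 0.71. Across all clusters the same r was 0.04 and across 1-symbol clusters above background 0.33. The genes all share the same 4 arrays and are not independent. Between the other pairs of groups r over the 34 genes ran from −0.12 to 0.33.

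**Figure D5:**
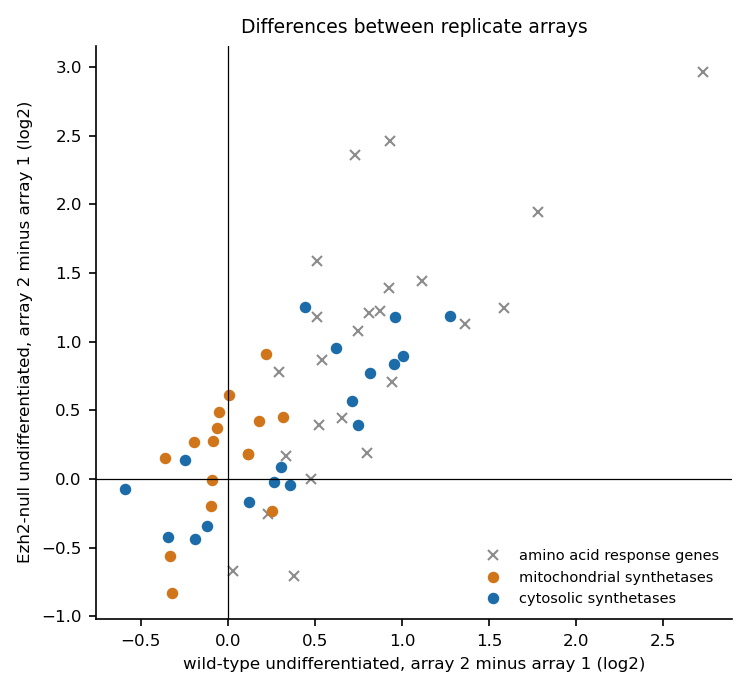
Array 2 minus array 1 (log2) in undifferentiated wild-type cells (horizontal axis) and in undifferentiated Ezh2-/- cells (vertical axis), 1 symbol per gene. Blue circles are cytosolic synthetases, orange circles mitochondrial synthetases and grey crosses 24 amino acid response genes. Sars (1.27 and 1.19) and Tars (1.01 and 0.89) lie at the upper right and Farsa (−0.34 and −0.42) at the lower left.

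The amino acid response genes had gaps of the same sign. Array 2 was the higher for 24 of 24 of them in undifferentiated wild-type cells (median gap 0.74) and for 21 of 24 in undifferentiated Ezh2-/- cells (median gap 1.10). In wild-type neutrophils, neutrophils labelled Ezh2-null, GSK343 and vehicle arrays it was the higher for 15, 14, 11 and 8. The share of all clusters higher on array 2 was not counted, so these counts and those of the synthetases have no background share. Medians over all clusters on arrays 1 and 2 were 4.54 and 4.59 in undifferentiated wild-type cells and 4.58 and 4.56 in undifferentiated Ezh2-/- cells. Slc7a11 had gaps of 2.73 and 2.97 in the undifferentiated groups, Chac1 1.78 and 1.94, Trib3 0.93 and 2.46, and Asns 1.36 and 1.13. For mitochondrial synthetases array 2 was the higher for 7 of 16 in wild-type cells (median gap −0.06) and for 11 of 16 in Ezh2-/- cells (median gap 0.23). The labels name no handling difference between the arrays, and the source of these gaps was not tested. They enter the SE of each gene, which was 0.439 for Sars and 0.134 for Mars1.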

How the data were processed

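Gene expression was measured in 12 samples, in 6 groups of 2 arrays. The deposited values are log2 signals, judged from their range, 1 for each transcript cluster and each control probe set. Expression Console and Transcriptome Analysis Console, both from Affymetrix, are named in the submitters' processing notes. Tool versions, summarisation, background correction and build: not given in the sources used here. Of 72688 entries, 6732 control probe sets were left out and 65956 clusters tested.

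Symbols came from the platform annotation and were updated by Entrez ID through RefSeq's gene table (GRCm38.p6), which changed 1 of the 34 symbols (Mars to Mars1). Of all clusters, 31388 carried 1 symbol. On each array, background was set at percentile 95 of the signals of 23 antigenomic probe sets. Bright clusters lay above it on both arrays of at least 1 group. Where no array of the dimmer group exceeded background, "at least" or "bounded" folds set the brighter mean against the higher of background and the gene's own signal on each array.

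All 12 arrays were fitted on the log2 scale with limma 3.58.1 in R 4.3.3 (lmFit and eBayes, 6 group means, residual degrees of freedom 6, prior degrees of freedom 3.06), with Benjamini-Hochberg adjustment over all clusters and a threshold of 0.05. Adjusted p-values are limma's throughout. The fit was tested on simulated data. The number of arrays limits the precision. Every gene is named; values per array are given for the 8 largest changes past the threshold in wild-type differentiation, the 6 largest in each other comparison, the scaffold genes, Gars, Kars, Wars and the glutamine pathway, and for other genes that a comparison turned on, which were chosen after their values were seen. Of other lists the 3 largest changes past the threshold are named at most. The members and lists were chosen with earlier results of these data known. Alternatives changed scaling, the filter on dim signal, the arrays fitted, the variance prior and the replicate block, and left out each array.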

Additional observations from a re-analysis of the deposited data

Results flagged for a closer look

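The effect of the genotype label on 3 synthetase genes differed between neutrophils and undifferentiated cells by a test of the interaction (limma, 2 arrays a group, adjusted over all clusters). The difference was 2.01 log2 units for Hars, 1.09 for Mars1 and 2.17 for Vars. As a share of the 34 genes these 3 are close to the 8.37% of 1-symbol clusters above background that were called higher. The count itself therefore does not set the synthetases as a whole apart. All 3 are among the 18 cytosolic genes. For Hars and Vars the call held in every alternative run, and for Mars1 it was lost in 3 of them. The signs of the group values are given with the interaction test. No test for a stray array was made, since groups held 2 arrays.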

How the results depend on the processing

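No called synthetase gene changed sign under any alternative run, and median centring and quantile normalization moved the median over all clusters by less than 0.1 log2 units. The number of genes lower in wild-type differentiation ran from 27 to 29 when each array was left out (30 in all), and in Ezh2-null differentiation from 21 to 27 (27 in all). With the genotype arrays alone, 29 of those 30 calls and 23 of those 27 were kept. With the compared groups alone, 29 and 19 were kept. Vars, Nars2, Sars2 and Wars2 lost their calls in Ezh2-null differentiation in both of these fits. The genotype comparison in neutrophils was the least stable. Its 17 higher genes became 9 with the genotype arrays alone, and from 8 to 14 when each array was left out. Its 1 lower gene, Nars2, became 0 with the genotype arrays alone, 0 with the compared groups alone, and 0 to 1 when each array was left out. In undifferentiated cells the 0 higher and 0 lower genes became 0 to 1 each when arrays were left out. The 3 genes of the interaction became 5 with quantile normalization and 5 with bright clusters only, where Gars and Kars passed (adjusted p = 0.0349 and 0.0385, and 0.0449 and 0.0379), and 2 to 6 when arrays were left out. A left-out array leaves a group with 1 array, which is assumed to vary like the others. Mars1 missed the threshold in the interaction with a trended, robust variance prior (adjusted p = 0.0517). For other changes of call the cause was not tested.

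Replicate numbers are shared between groups. Differences of array 2 from array 1 correlated between groups at r of −0.25 to 0.19 over all clusters, and on that ground arrays were not taken as pairs. That ground does not hold for the synthetases in undifferentiated cells, where r between genotypes was 0.74 over the 34 genes and 0.83 over the cytosolic ones. Over 1-symbol clusters above background r between genotypes was 0.33 in undifferentiated cells and 0.29 in neutrophils. With the replicate number as a block, 30 genes fell in wild-type differentiation, 26 in Ezh2-null differentiation (Vars was lost), 16 were higher and 1 lower in neutrophils by genotype, and 4 were called in the interaction (Eprs was gained). GSK343 gave 0 under every alternative. Using the mean of several entries per gene changed nothing, since each gene had 1. Signal near background limits Ears2 on every neutrophil array.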
